A study of Mus musculus with 35 samples.

Results

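The region described here is a 2 Mb stretch of mouse chromosome 6 (mm10, chr6:129500001-131500000) that spans the Klra (Ly49) receptor genes, and its members are 454 binding peaks of epitope-tagged NELFA. Members were chosen by position alone, as the peaks whose summit, the point of highest signal, falls in that stretch. They are 454 of the 59485 peaks in the deposited list, or 0.763%, and 5.47% of the 8298 peaks on chromosome 6. The stretch itself was selected on its high number of peaks in these data, so the counts and fold enrichments of its peaks are given as descriptions, with no test.

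The chromatin came from E14 mouse embryonic stem cells cultured with serum, LIF and the 2i inhibitors. The cells carried a doxycycline-inducible NELFA-StrepHA-P2A-EGFP transgene, induced with 0.4 µg/ml doxycycline for 16 h, and HA antibodies precipitated the tagged protein from fixed, sonicated chromatin. There were 4 immunoprecipitated libraries from 3 replicates (3 libraries with the first HA antibody and 1 with the second) and 3 input libraries, all of them from induced cells. They are represented by 1 peak list without a column for any library, so no value below has a replicate error, no uninduced chromatin stands beside it, and the read depth is unknown. Of the 35 libraries in the series, the 20 from RNA-seq and the 8 from ATAC-seq were not used here.

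Natural killer (NK) cells use Ly49 receptors, C-type lectin-like proteins encoded by the Klra genes, to survey MHC class I molecules on other cells. Inhibitory members carry a cytoplasmic motif that recruits phosphatases, and activating members signal through an adaptor protein. The family expanded by gene duplication in rodents and differs in gene content among inbred mouse strains. NELFA is a subunit of the negative elongation factor, which holds RNA polymerase II paused shortly after the start of transcription. Embryonic stem cells are not NK cells, and the values below are peaks of an induced, tagged protein in stem cells, not receptor expression.

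The name of the cluster fits its peaks only in part. Of the 454 members, 79 (17.4%) had their summit inside a Klra gene and 85 (18.7%) inside or within 1 kb of one, and those stretches make up 15.4% of the window. The other 369 lay elsewhere. Most members, 310 (68.3%), lay in the 812 kb between Klra1 and Klra2, where RefSeq lists 5 protein-coding genes and 10 pseudogenes and no Klra gene. A further 129 (28.4%) lay in the 556 kb from Klra17 to Klra1, which holds 13 of the 14 Klra genes. The 331 kb on the side of the CD94 and NKG2 genes held 4 members, and the 301 kb from Klra2 to the upper edge held 11.

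The start regions of 5 Klra genes are shown first, because they put regions of similar sequence with and without bases under a peak side by side. Each covers 250 bases before and 50 after a RefSeq start on GRCm38.p6, the assembly that mm10 names, is written 5′ to 3′ on the minus strand, and has in capitals the bases under a deposited peak interval. The Klra17 stretch is chr6:129876623-129876922, Klra4 is chr6:130067222-130067521, Klra8 is chr6:130129849-130130148, Klra9 is chr6:130193063-130193362 and Klra3 is chr6:130337577-130337876.
Klra17: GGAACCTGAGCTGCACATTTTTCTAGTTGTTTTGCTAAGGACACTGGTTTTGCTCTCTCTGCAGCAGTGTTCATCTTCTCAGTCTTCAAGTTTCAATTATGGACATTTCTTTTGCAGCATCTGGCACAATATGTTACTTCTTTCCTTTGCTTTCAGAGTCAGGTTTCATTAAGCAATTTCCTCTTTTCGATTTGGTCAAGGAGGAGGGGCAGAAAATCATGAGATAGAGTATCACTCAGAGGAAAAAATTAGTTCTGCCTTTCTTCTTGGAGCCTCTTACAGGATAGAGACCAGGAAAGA
Klra4: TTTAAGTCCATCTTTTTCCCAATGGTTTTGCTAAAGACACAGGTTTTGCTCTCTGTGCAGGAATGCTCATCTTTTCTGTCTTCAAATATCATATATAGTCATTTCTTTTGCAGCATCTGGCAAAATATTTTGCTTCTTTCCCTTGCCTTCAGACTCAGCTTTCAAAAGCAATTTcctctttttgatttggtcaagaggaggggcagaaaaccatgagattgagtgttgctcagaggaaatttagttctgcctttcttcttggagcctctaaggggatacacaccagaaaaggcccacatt
Klra8: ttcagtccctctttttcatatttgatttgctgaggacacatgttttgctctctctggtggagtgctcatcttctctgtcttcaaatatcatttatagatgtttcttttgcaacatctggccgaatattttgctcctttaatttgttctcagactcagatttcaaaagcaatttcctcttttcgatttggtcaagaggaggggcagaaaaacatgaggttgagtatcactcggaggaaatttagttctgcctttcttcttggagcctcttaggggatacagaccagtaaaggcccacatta
Klra9: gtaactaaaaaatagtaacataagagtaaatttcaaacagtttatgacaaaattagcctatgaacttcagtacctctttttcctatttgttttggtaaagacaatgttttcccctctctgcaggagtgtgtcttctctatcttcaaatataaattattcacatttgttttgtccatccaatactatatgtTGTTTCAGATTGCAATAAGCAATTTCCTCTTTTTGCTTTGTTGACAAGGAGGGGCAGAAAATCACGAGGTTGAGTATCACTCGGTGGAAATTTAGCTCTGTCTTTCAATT
Klra3: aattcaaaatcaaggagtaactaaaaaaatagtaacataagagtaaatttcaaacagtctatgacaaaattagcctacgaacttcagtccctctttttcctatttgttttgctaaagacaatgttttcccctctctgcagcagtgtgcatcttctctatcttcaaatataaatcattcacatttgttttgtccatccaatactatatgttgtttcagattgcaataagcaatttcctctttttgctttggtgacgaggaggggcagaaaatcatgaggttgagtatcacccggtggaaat

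The Klra17 window lay wholly under a peak 1717 bp wide, whose summit was 974 bp downstream of the start with a fold enrichment of 3.59. In the Klra4 window 174 of the 300 bases lay under the peak chr6:130067348-130067987, whose summit was 559 bp upstream of the start with a fold of 3.27. A weaker peak that does not reach the window had its summit 427 bp downstream of the start, with a fold of 2.04. The Klra8 window is 86.3% identical to that of Klra4, with no base under a peak, and its nearest summit was 7246 bp downstream. The percent identity depends also on where the starts lie. Another start window of Klra8, which overlaps the one shown, is only 79% identical to it. The Klra9 window had 110 bases under a peak, with a summit 91 bp downstream of the start and a fold of 2.31. The Klra3 window is 90.3% identical to that of Klra9 and had no base under a peak, the nearest summit being 4847 bp downstream. In each of these similar pairs a peak thus touched the window of Klra4 or Klra9 and not that of the other gene. The Klra4 peak lay upstream of the start and did not reach it. Not all similar pairs differed. The windows of Klra17 and Klra4 are 81% identical and both touched a peak. Those of Klra5 and Klra6 are 82% identical and neither did, while those of Klra17 and Klra8, 81.3% identical, differed. The sources used here do not say how multiply aligning reads were handled, so the place of a peak among similar copies is uncertain, and its part in these differences was not tested.

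All 11 protein-coding Klra genes have RefSeq starts on the minus strand, 13 start windows in all, and 4 windows touched a peak interval. The fourth was the start of Klra7 at chr6:130233273-130233572, with 22 bases under a peak. The share of all RefSeq start windows that touch a peak was not computed, so the count of 4 is a description only. The letters TATAAA, searched on both strands, occurred in 8 of the 13 windows and in 13.6% of the 32851 RefSeq start windows of mouse. CCAAT occurred in 6 of the 13 and in 37.4% of all, and GGGCGG in 0 of the 13 and in 35.7% of all. The Klra windows held 0 to 4 CG dinucleotides (median 2), against a median of 7 over all start windows, and their GC content was 33 to 47%, against a median of 52.7%.

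The members stood closer together than other peaks of the chromosome. The window held 22.7 peaks per 100 kb, against 5.31 per 100 kb over the rest of chromosome 6 up to its last annotated base. Neighbouring member summits were a median of 986 bp apart (lowest 122 bp, highest 237255 bp), against 6625 bp among the rest of chromosome 6. Of 453 such spacings among members 228 (50.3%) were under 1 kb, against 19.4% among the rest of chromosome 6. Among 2 Mb windows laid from the same starting point the member window ranked 7 by number of peaks of 1350 with a peak, where the median window held 24, and 1 of 75 on chromosome 6, where the median held 97.

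**Figure D1:**
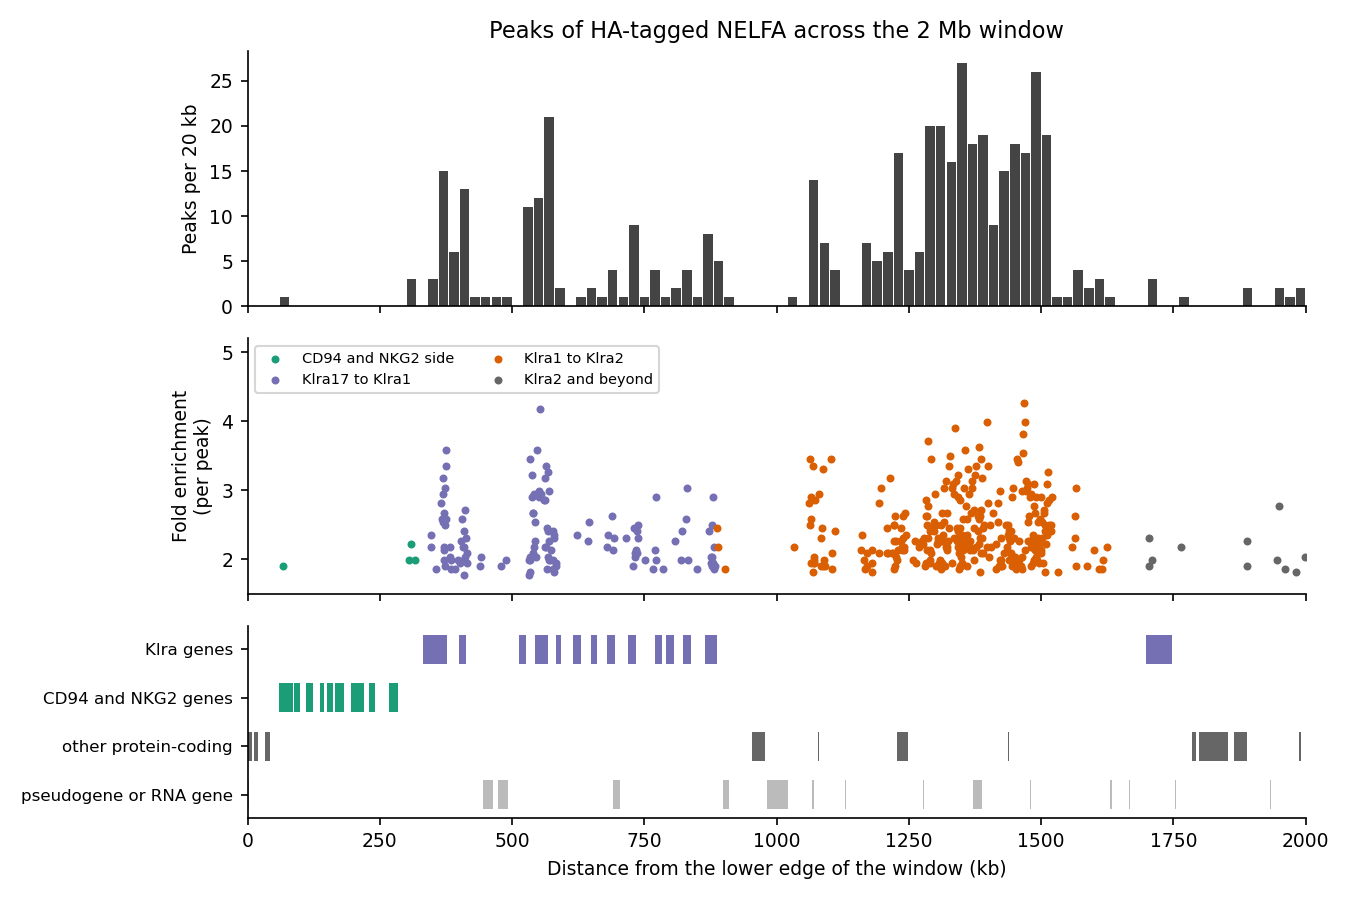
Peaks per 20 kb (top), fold enrichment of each member peak coloured by stretch (middle) and annotated genes (bottom), against distance in kb from the lower edge of the window. Of 100 bins 37 are empty, and the fullest, which lies between Klra1 and Klra2, holds 27 peaks.

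The peaks were individually modest. The median fold enrichment of members was 2.27 (range 1.77 to 4.27), against 2.00 for the other 7844 peaks of chromosome 6 and 2.09 for the other 59031 peaks of the list. No member reached the strongest peaks elsewhere, whose highest fold was 21.3 on the rest of chromosome 6 and 27.3 in the rest of the list. Folds of 3 or more were given to 55 members (12.1%), against 6.97% of the rest of chromosome 6 and 14.2% of the rest of the list. Members were a median of 229.5 bp wide, against 124 bp and 170 bp. The median −log10 q was 4.68, against 2.69 and 3.31. The 454 members held 48 distinct folds, and each fold went with 1 value of −log10 q.

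**Figure D2:**
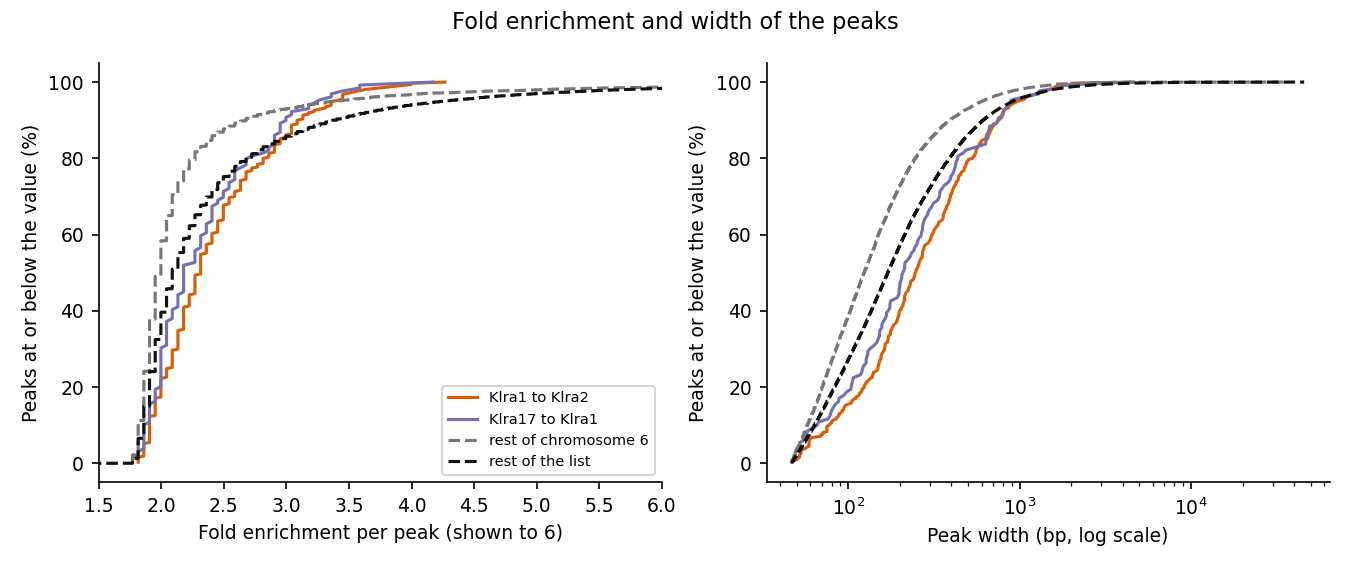
Cumulative share of peaks (%) by fold enrichment (left) and by width in bp on a log scale (right), for members between Klra1 and Klra2, members from Klra17 to Klra1, the rest of chromosome 6 and the rest of the list. The members between Klra1 and Klra2 have the higher median fold of both member stretches, 2.31 against 2.18, and these curves end at 4.27 and 4.18, while the rest of the list goes on to 27.3.

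The activating receptor genes of the reference genome differed widely. E14 cells derive from another inbred strain, so these names need not describe the alleles of the cells used. Klra4 (Ly49D, chr6:130043730-130067301) held 17 summits in 23.6 kb, or 0.721 per kb, with 53.5% of the gene under a peak. Its folds ran from 1.86 to 4.18 with a median of 2.86, and it held the strongest peak at any Klra gene, chr6:130051979-130052826. It also held the widest member, chr6:130044710-130049353, 4644 bp wide with a fold of 3.59. Klra8 (Ly49H, chr6:130115226-130129898), the receptor for a mouse cytomegalovirus protein, held 1 summit in 14.7 kb with a fold of 2.36, and 1.38% of it lay under a peak.

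Among the inhibitory and related receptors the counts ran from 0 to 18. Klra17 (Ly49Q, chr6:129831154-129876672), known from plasmacytoid dendritic cells, held 18 summits in 45.5 kb with folds of 1.86 to 3.59, and 20.9% of it lay under a peak. Klra5 (Ly49E, chr6:129898988-129913237) held 11 in 14.2 kb, or 0.772 per kb, with a highest fold of 2.72. Klra6 (Ly49F, chr6:130013033-130026960), whose start window is 82% identical to that of Klra5, held none, and its nearest summit was 3989 bp from a boundary. Klra1 (Ly49A, chr6:130363918-130386874), the first Ly49 receptor to be studied closely, held 11, or 0.479 per kb, with a highest fold of 2.90.

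The genes from Klra9 to Klra3 were less densely marked. Klra9 (Ly49I, chr6:130178626-130194374) and Klra7 (Ly49G, chr6:130218605-130233322) held 5 summits each, with highest folds of 2.63 and 2.45. One summit of Klra9 lies also in the overlapping long non-coding RNA gene Gm52487, and the list gives no strand to tell them apart. Klra10 (Ly49J, chr6:130269194-130283647) held 3, with a highest fold of 2.90. Klra3 (Ly49C, chr6:130323289-130337626) held 3, with a highest fold of 3.04. Klra2 (Ly49B, chr6:131198970-131247716), a myeloid member that stands apart from the rest of the family, held 3 in 48.7 kb, or 0.0615 per kb, with a highest fold of 2.31.

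The 3 Klra pseudogenes carried little. Klra11-ps (chr6:130082606-130092831) held 2 summits with a highest fold of 1.95. Klra14-ps (chr6:130149106-130160748) and Klra13-ps (chr6:130291161-130306432) held 0, with the nearest summits 4520 bp and 1726 bp from a boundary.

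**Figure D3:**
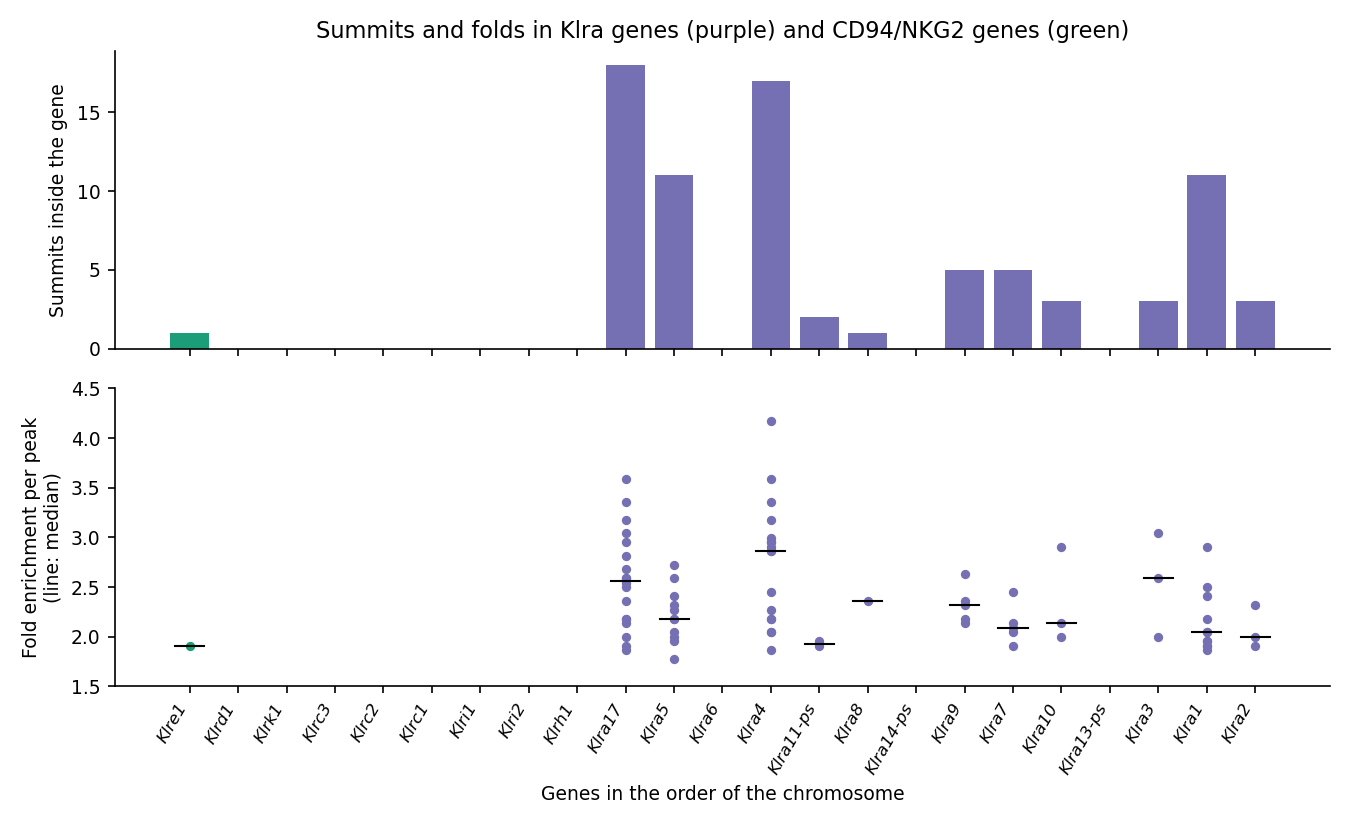
Number of summits inside each gene (top) and the fold enrichment of each of those peaks with its median as a line (bottom), for the Klra genes in purple and the CD94 and NKG2 genes in green, in chromosome order. Klra17 has 18 summits, Klra4 17, and Klra5 and Klra1 11 each, while Klre1 is the green gene with 1.

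Over the family, 11 of 14 Klra genes held a summit, against 24.9% of the 13852 annotated genes of the same range of length, and 57 of the 79 interior summits (72.2%) were in Klra17, Klra4, Klra5 and Klra1. In that length range 3.65% of genes held 5 or more summits, and 6 Klra genes did. At 8 of the 14 genes (57.1%) a summit lay no more than 1 kb from a gene end, against 12.9% of 49718 annotated genes. Of the 11 protein-coding ones it did so in 7 (63.6%), against 18.9% of 21843. The window was selected on its peaks, so these shares describe it and show nothing further about the family. The Klra genes without such a summit were Klra6, Klra8, Klra14-ps, Klra13-ps, Klra3 and Klra2. Counts of 5 or more were not particular to Klra genes. Outside the window, Klrb1 held 9 summits, Klrb1a 8, Cd244a 21, Raet1e 20, H60b 15 and Raet1d 8. A summit lay inside 10 of 17 Nkrp1, Clr and related receptor genes and 4 of 5 annotated NKG2D ligand genes. For genes of the Dectin cluster and its neighbours the count was 1 of 9, and for taste receptor genes 0 of 40. Over all protein-coding genes the share was 29.4%.

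Along the protein-coding Klra genes, 54 of 77 interior summits (70.1%) lay nearer the 5′ end than the 3′ end. This share was chosen as a result after seeing the data. It was not computed over all genes, so it is a description only. Klra17 had 16 of its 18 summits nearer the 5′ end, and without Klra17 the count was 38 of 59 (64.4%). Klra7 had all 5 within 4216 bp of its 5′ end, and Klra1 had 10 of its 11 nearer that end, none closer to it than 4118 bp. Klra4 divided evenly, 9 of 17. Klra10 and Klra2 had 0 of 3 each on that side. A summit lay within 1 kb of the 5′ end of the gene model in 5 of the 11 genes, of the 3′ end in 4, and at both ends in 2. The share over all protein-coding genes was 18.9% for either end and was not computed for each end apart. The end of a gene model can differ from the RefSeq start used above. Klra9 was not among the 5, as its closest interior summit lay 1353 bp from the 5′ end of its model.

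**Figure D4:**
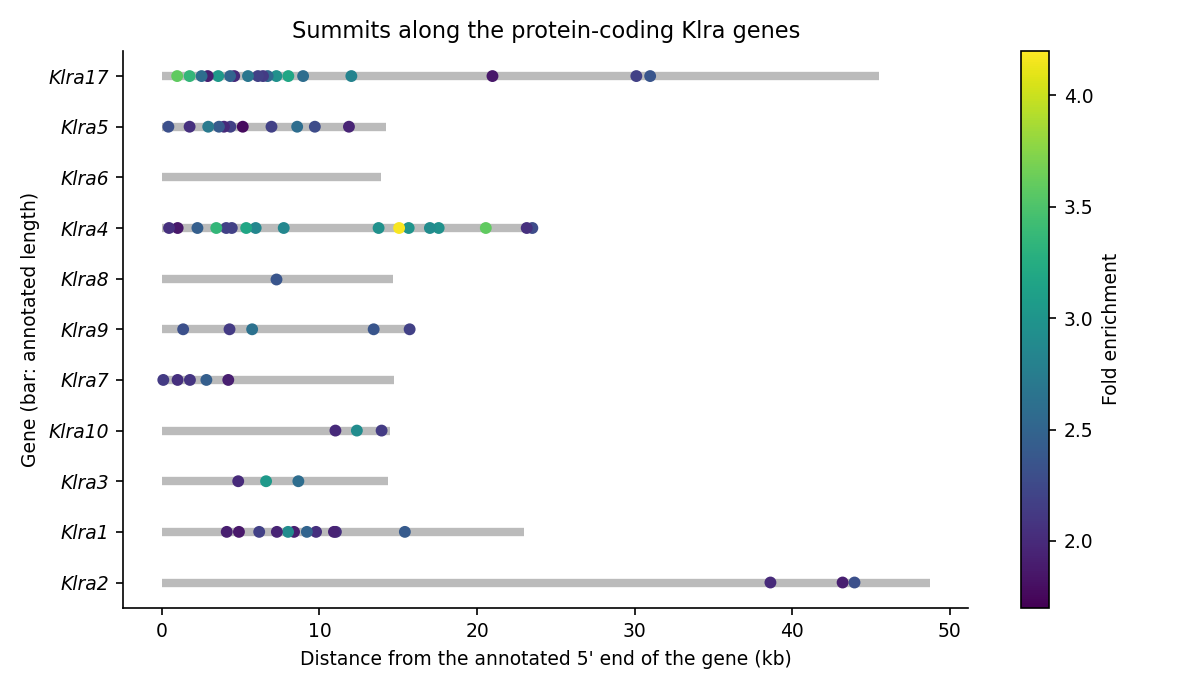
Summits along each protein-coding Klra gene, as distance in kb from the annotated 5′ end, coloured by fold enrichment, with the gene drawn as a grey bar. Summits of Klra7 and 16 of the 18 in Klra17 lie nearer the 5′ end, those of Klra4 run through the gene, and those of Klra10 and Klra2 lie towards the 3′ end.

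Between Klra1 and Klra2 the peaks were denser than within the Klra genes' own run, with 38.2 per 100 kb and 13.9% of bases covered, against 23.2 per 100 kb and 8.17% from Klra17 to Klra1. The median fold was 2.31, against 2.18, and 43 of 310 members had a fold of 3 or more, against 12 of 129. Gene models cover 16.1% of the stretch and held 41 of its summits (13.2%). The other 269 lay outside any gene model, a median of 14229 bp from the nearest. From Klra17 to Klra1, by contrast, 78 of 129 summits (60.5%) lay in genes, which cover 50.4% of that stretch.

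The gene models that carried peaks there are little characterised. The pseudogene Gm21940 (chr6:130870526-130888579) held 20 summits in 18.1 kb, the highest count of any gene model in the window, with 52.1% of it covered and a highest fold of 3.63. The protein-coding models LOC115490339 (chr6:130938112-130939587), Gm6600 (chr6:130727720-130747623) and Gm38706 (chr6:130577844-130580033) held 3, 11 and 1 summits, or 2.03, 0.553 and 0.457 per kb. The pseudogene Gm8816 (chr6:130567608-130569739) held 3 with a highest fold of 3.36. In the same stretch Gm6590 (chr6:130453069-130477811) and Gm44150 (chr6:131084344-131085401) held none.

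The peaks formed blocks with long empty stretches between them. When summits no more than 10 kb apart were joined, 6 blocks held 10 or more peaks. The largest ran from 130757538 to 131019725, with 231 peaks in 262 kb, 36.2% of bases covered, a median fold of 2.31 and 4 gene models in it (Gm18423, Gm21940, LOC115490339 and Gm6608). The block over Klra4 and Klra11-ps, from 130030949 to 130083041, held 46 peaks in 52.1 kb with 43.5% covered, and that over Klra17 and Klra5, from 129845687 to 129915201, held 37 in 69.5 kb. The block at Klra1 held 13 in 17.3 kb. The widest gap, 237 kb from 129567034 to 129804289, covers most of the CD94 and NKG2 genes, and the next, 130 kb from 130402793 to 130532781, lies beyond Klra1.

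Of the 10 strongest members, 7 lay between Klra1 and Klra2 and 3 from Klra17 to Klra1. The strongest, chr6:130966660-130968135, had a fold of 4.27 and lay between genes, 11675 bp from the pseudogene Gm6608. The peaks chr6:130968841-130969594 and chr6:130964184-130965776, with folds of 3.99 and 3.81, lie close by. Other strong peaks between genes were chr6:130898148-130898897 with 3.99, chr6:130836225-130837513 with 3.90 and chr6:130786357-130787463 with 3.72. Inside gene models were chr6:130882656-130883874 in Gm21940 with 3.63, chr6:129875340-129877056 in Klra17 with 3.59, and the pair in Klra4 described above.

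The neighbouring CD94 and NKG2 genes, which encode other NK lectin-like receptors for MHC class I and stress ligands, held 1 summit in all. Of 9 genes over 140 kb, 0 had a summit within 1 kb of a boundary, against 18.9% of all protein-coding genes. Klre1 alone held a summit inside, against 29.4% of all protein-coding genes, with a fold of 1.91 and 7669 bp from its boundary. No test was made of a count over so few genes. No summit lay inside Klrd1 (CD94), Klrk1 (NKG2D), Klrc1 (NKG2A), Klrc2 (NKG2C), Klrc3 (NKG2E), Klri1, Klri2 or Klrh1. Of 12 other protein-coding genes in the window 4 held a summit, and the same 29.4% is the share over all protein-coding genes. The 8 with none included Olr1, Tmem52b and Gabarapl1 beside the CD94 side and Magohb, Styk1 and Gm6619 beyond Klra2. Ybx3 (chr6:131364858-131388450), a cold-shock domain protein gene, held 2 with a highest fold of 2.27.

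Towards the edges of the window the peaks were sparse and weak, and the nearest listed peaks on either side of each edge had folds of 1.82 to 2.27. Nearest the lower edge inside were summits at 129567034, 129804289 and 129809614, with folds of 1.91, 2.00 and 2.22, and outside it summits at 129361566, 129185331 and 129148379 with 1.91, 2.00 and 2.00. Nearest the upper edge inside were summits at 131498226, 131480690 and 131461635, with folds of 2.04, 1.82 and 1.86, and outside it summits at 131505434, 131546487 and 131549085, with 1.82, 2.13 and 2.27.

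The windows nearest to the member window in number of peaks are given with their protein-coding genes that held most summits. The member window, with 454 peaks, a median fold of 2.27 and a highest of 4.27, stands beside chr8:69500001-71500000 with 482 peaks, a median of 2.04 and a highest of 8.85. Its genes with most summits were Gm7827, Gm7697 and Ell. Next is chr17:29500001-31500000 with 490 peaks, a median of 2.00 and a highest of 8.22, where these genes were Dnah8, Btbd9 and Glp1r. The third, chr7:7500001-9500000, had 411 peaks, a median of 2.18 and a highest of 4.63, and its genes with most summits were the vomeronasal receptor genes Vmn2r44, Vmn2r39 and Vmn2r43. No test compares these windows, since each enters as 1 region of 1 list.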

How the data were processed

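The submitters' processing notes name the mm10 build, MACS2, SAMtools 1.4, Bowtie2 2.2.9 and Trim Galore 0.4.2. The sources used here give neither settings, nor how libraries were combined, nor what the R1234 and MAPQ0 tags in peak names mean. The deposited list gives for each peak the authors' fold enrichment, a linear ratio, a −log10 p-value (not used here), a −log10 q-value, and a score, and all belong to 1 pooled list. The lowest −log10 q was 1.31. Peaks were joined to a RefSeq gene table of GRCm38.p6, with 49718 genes placed on chromosomes. A boundary summit lay within 1 kb of either gene end. Code was checked on simulated data. Python 3.11.15, numpy 2.4.6, pandas 2.3.3 and scipy 1.17.1 were used.

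The region, gene lists and alternatives were chosen with earlier results of these data known. By rule, the text names every Klra, CD94 and NKG2 gene, the 3 other protein-coding genes with most and with fewest summits per kb, the 10 strongest members and 3 peaks on each side of each edge. From other gene lists it names all with a boundary summit up to 5, else the 4 strongest. The pseudogenes Gm21940 and Gm8816 and the nearest-gene names were added after their values were seen. So were the summit counts inside genes outside the window and the stem cell genes without a boundary summit. 2 Klra genes on separate scaffolds were not used. Alternatives were peaks with −log10 q of at least 4, peaks at or above the list's median fold, windows of 500 bp and 2 kb, and interval overlap.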

Additional observations from a re-analysis of the deposited data

How the results depend on the processing

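Of 37 alternatives 25 left the value within 1.5 times, or, for shares and medians, within its 95% interval. That interval counts neighbouring peaks of 1 pooled list as independent, so it is only a yardstick and not a replicate error. Among peaks with −log10 q of at least 4, members numbered 249 (against 454), 4 Klra genes had a boundary summit (against 8), the median fold was 2.59 (2.27), the median spacing 1365.5 bp (986) and the density from Klra17 to Klra1 11.2 per 100 kb (23.2). Among peaks at or above the list's median fold, these last 3 values were 2.45, 1191 bp and 14.6 per 100 kb. The share of summits between Klra1 and Klra2 was 73.5% and 73.0% under these limits, against 68.3%, and this share was added as a result after seeing the data. The share of summits nearer the 5′ end of Klra genes, likewise added after seeing the data, was 63.4% and 66.7%, against 70.1%. A boundary window of 500 bp left 5 Klra genes. Both limits remove weak peaks, which raises the median fold by construction. With windows counted from 0, also chosen after seeing the data, the 2 Mb window ranked 11 with 422 peaks. The share of summits at Klra genes ran from 17.4 to 20.3% under the 7 alternatives run for it. The count of CD94 and NKG2 genes with a boundary summit was 0 under all 5, which are among the 25. None of these 5 could change it, because the nearest summit lay 7669 bp from a boundary and the limits only remove peaks. No paired analysis was possible because the list has no column for any library.

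Without replicate values, counts and folds here have no error. E14 cells derive from another inbred strain than the reference genome, and Klra gene content differs among strains, an effect that was not tested.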

Other observations

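Other gene lists are given by how many members had a summit within 1 kb of a boundary, as 18.9% of all protein-coding genes did, and no test compares the lists. Of 17 genes in a list of Nkrp1, Clr and related lectin-like receptors, all on chromosome 6 below the window and 2 of them (Klrg1 and Klrg2) away from the cluster, 5 had one: Klrb1a with a fold of 3.00, Clec2j with 2.18, Klrb1c and Klrb1b with 2.13 each, and Clec2i with 1.91. Of 9 genes of the Dectin cluster and its neighbours, of which Olr1, Tmem52b and Gabarapl1 reach into the window, 0 did. Of a list of 7 genes, 3 in the window above Klra2 (Magohb, Styk1 and Ybx3), 3 further up chromosome 6 (Etv6, Bcl2l14 and Lrp6) and Csl, which lies on chromosome 10, 3 did. These were Lrp6 with 3.99, Ybx3 with 2.27 and Etv6 with 2.18.

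Of 17 signalling genes of NK receptors 3 had one, Grb2 with 2.81, Pik3r1 with 2.04 and Ptpn6, the phosphatase that inhibitory Ly49 receptors recruit, with 1.91. Of 13 NK transcription factor genes Klf2 with 3.54 and Id2 with 2.00 had one, and of 10 effector genes 0. Of 14 other NK receptor genes Fcgr3 with 8.12 and Cd244a with 3.95 had one. Of 8 genes of MHC class I heavy chains and of their assembly (H2-K1, H2-D1, H2-T23, H2-M3, B2m, Tapbp, Tap1 and Tap2) H2-T23 had one, with 2.45. Of 5 annotated NKG2D ligand genes 3 did, Raet1e with 3.59, Raet1d with 2.77 and H60b with 2.09. Of 40 taste receptor genes 1 did, Tas2r134 with 2.31. Of 8 stem cell genes 5 did, Klf4 with 3.13, Tfcp2l1 with 2.54, Nanog with 2.50, and Sox2 and Zfp42 with 2.41 each. Pou5f1, Esrrb and Tdgf1 did not.

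All 454 members had a fold within 0.02 of a step from a whole multiple of 0.0454, with 48 distinct values, and 98.1% of the rest of the list did.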
